A study of Mus musculus with 188 samples.

Results

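The steepest early-to-late transitions of the mouse replication timing program were read in single embryonic stem cells, as the places where replicated DNA gave way to unreplicated DNA. Members were 50 kb bins of the 19 autosomes. For each bin the smoothed score was averaged over the haploid cells and over the diploid cells, the mean of these averages gave a mean profile, and the slope was the absolute difference of that profile between the bins 500 kb downstream and 500 kb upstream. The 5% of bins with the highest slope were taken, which gave 2128 of 42546 bins with a slope, and of 49264 autosomal bins in all. They covered 106.4 Mb. The score has no unit, since each cell was centered and scaled by its own interquartile range. The slope of members ran from 1.008 to 1.61 with a median of 1.12, against a median of 0.282 over all bins. The last member inside and the first bin outside the threshold had slopes of 1.0077 and 1.0076. Because these values chose the bins, they are a description only.

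In mammalian cells, large domains whose origins fire at about the same time replicate early or late in S phase and appear as plateaus in timing profiles. Timing transition regions lie between early and late domains, and forks or sequential origin firing carry replication across them. Early domains are generally rich in genes and in open chromatin, and late domains are poor in genes and often lie near the nuclear lamina. A single S-phase cell has more copies of replicated than of unreplicated DNA, so that each cell shows a step in copy number, here called a border, where its replicated DNA ends.

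Nuclei of feeder-free mouse embryonic stem cells (mESCs) of 2 lines, both grown in 2i medium, were sorted by DAPI for DNA content. H129-2 is a haploid 129 line, and F121-9 is a diploid hybrid line with 1 chromosome set of 129 and 1 of Castaneus. Values were used from 75 haploid and 63 diploid S-phase cells, and the labels give a well for each cell but name no plate or culture. A line is thus taken as 1 sample, means and SDs are over its cells, and no p-value is given. No gene expression was measured, so the markers of the stem cell state could not be checked in these cells. The share of autosomal bins in the replicated state gave the position of a cell in S phase. It ran from 24.6% to 88.6% in haploid cells and from 18.2% to 79.1% in diploid cells. Cells between 40% and 60% replicated are called mid-S cells. There were 25 haploid mid-S cells at 53.5% ± 4.94 (SD) and 45 diploid mid-S cells at 53.4% ± 5.22. Among the other cells, 11 haploid and 4 diploid cells were under 40% replicated and 39 haploid and 14 diploid cells were over 60%. The number of reads in each cell was not part of the values, so its depth is unknown.

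Member bins of 1 direction were joined over gaps of up to 2 bins into 286 transitions. A transition spanned 391 kb ± 201 (SD, n = 286; 50 to 850 kb), and 22 of them held 1 bin. The early side lay at the lower coordinate in 139 and at the higher coordinate in 147. At 500 kb from the centre, which is the bin of highest slope, the mean profile stood at 0.450 ± 0.165 on the early side and at -0.729 ± 0.152 on the late side. All 2128 member bins had a state in every cell, while 68 of them had no smoothed score of their own. Steep bins were spread unevenly over the genome. They took 9.07% of the bins with a slope on chromosome 12 and 8.45% on chromosome 3, but 2.77% on chromosome 11 and 3.03% on chromosome 10. Neighbouring transitions of opposite direction had a median distance between centres of 3950 kb where their early sides faced each other (96 pairs). Where their late sides did, it was 3675 kb (100 pairs). Less steep transitions between them were not counted, so these are spacings of steep centres and not sizes of domains. The other 71 neighbouring pairs ran in the same direction.

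The steepest transition lay on chromosome 11 with its centre at chr11:112700001-112750000 (mm10), where no protein-coding gene is annotated. Sox9, a transcription factor gene of cartilage and testis development, starts 57.2 kb from the centre on the early side, and the nearest protein-coding gene on the late side, the potassium channel gene Kcnj2, starts 1659 kb away. The second, at chr2:85300001-85350000, contained the olfactory receptor gene Olfr987 at its centre, with Lrrc55 on the early side and an olfactory receptor cluster on the late side. The next, at chr16:89600001-89650000, had no gene at the centre and lay between Tiam1, which encodes an activator of the GTPase Rac, and the keratin-associated protein gene Krtap11-1. These neighbouring genes were chosen after the values were seen. Promoter sequences from both sides of the transitions on chromosomes 2 and 16 are shown, because the sides differed in the frequency of CG dinucleotides. They are the 250 bases upstream of a gene start in the RefSeq promoter table (GRCm38.p6, the assembly of mm10), 5′ to 3′ on the strand of the gene, with every CG in capitals. For each gene the listed start closest to its GENCODE start was taken, and the nearest matched promoter on each side is shown. On the late side of chromosome 2 this was Olfr988 at 28.9 kb, although the GENCODE start of Olfr987 lies closer, at 14.3 kb. For Lrrc55 the listed start lies 126.3 kb from the centre and the GENCODE start 127.8 kb. For Tiam1 the listed start lies 350 kb from the centre and the GENCODE start 519 kb, so the sequence is that of a different start. A CG reads the same on both strands.
Lrrc55, early side on chromosome 2 (chr2:85198751-85199000, minus strand, 3 CG): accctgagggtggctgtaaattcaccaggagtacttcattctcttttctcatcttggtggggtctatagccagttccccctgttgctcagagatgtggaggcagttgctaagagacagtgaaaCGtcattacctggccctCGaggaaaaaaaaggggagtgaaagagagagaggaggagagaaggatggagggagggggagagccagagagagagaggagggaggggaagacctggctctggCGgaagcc
Olfr988, late side on chromosome 2 (chr2:85353925-85354174, minus strand, 1 CG): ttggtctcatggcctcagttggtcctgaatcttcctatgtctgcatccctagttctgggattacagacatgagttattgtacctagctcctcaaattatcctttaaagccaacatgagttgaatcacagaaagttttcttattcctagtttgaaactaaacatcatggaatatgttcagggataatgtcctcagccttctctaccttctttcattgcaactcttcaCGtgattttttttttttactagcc
Tiam1, early side on chromosome 16 (chr16:89974700-89974949, minus strand, 6 CG): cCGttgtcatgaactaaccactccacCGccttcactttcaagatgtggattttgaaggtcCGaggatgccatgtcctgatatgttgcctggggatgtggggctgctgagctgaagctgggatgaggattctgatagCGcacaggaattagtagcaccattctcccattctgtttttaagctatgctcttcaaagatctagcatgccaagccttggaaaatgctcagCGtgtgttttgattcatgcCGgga
Krtap11-1, late side on chromosome 16 (chr16:89571184-89571433, minus strand, 4 CG): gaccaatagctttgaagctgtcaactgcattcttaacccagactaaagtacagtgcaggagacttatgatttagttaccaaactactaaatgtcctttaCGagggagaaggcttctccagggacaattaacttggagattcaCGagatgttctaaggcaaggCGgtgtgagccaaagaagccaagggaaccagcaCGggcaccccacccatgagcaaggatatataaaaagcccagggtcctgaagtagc

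Over all transitions, promoters within 500 kb of a centre held 13.2 ± 10.1 CG on the early side (SD, n = 923 genes) and 5.43 ± 8.19 on the late side (n = 369), beside 12.6 ± 10.6 over all 15703 matched promoters. The share of promoters with 10 or more CG was 58.2% on the early side, 20.1% on the late side and 53.5% over all. At least 1 CG was present in 95.4%, 75.9% and 93.2% of them. The early-side promoters shown above, with 3 CG at Lrrc55 and 6 at Tiam1, lie below the early-side mean. Krtap11-1 on the late side, with 4, holds more than Lrrc55. Olfactory and vomeronasal receptor genes made up 152 of the late-side promoters. Without them 217 late-side promoters held 8.64 ± 9.41 CG and 868 early-side promoters 13.97 ± 9.89, so that the late side was still the lower.

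In mid-S cells, steep transitions were where most cells carried a border. A border was counted where the state changed from replicated to unreplicated in the direction of the transition. The share of the 286 transitions with a border within 250 kb of the centre was 64.9% ± 8.61 (SD, n = 70 cells), 64.7% ± 7.27 in the 25 haploid and 65% ± 9.34 in the 45 diploid mid-S cells. The lowest, median and highest mid-S cells stood at 33%, 65.4% and 80.8%. The lowest and the highest were diploid cells, and the haploid range of 40.6% to 75.2% lay within the diploid one. The share was 30.1% ± 5.37 within 100 kb, 88.2% ± 6.23 within 500 kb and 94.1% ± 3.61 within 1 Mb. Scores were median filtered over 15 windows and segments held at least 5 bins, which limits how finely a border can be placed. A diploid cell at 52.6% replicated and a haploid cell at 58.6% lay below the others, at 33% and 40.6%, and in both the borders were displaced by a median of 175 kb toward the late side.

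**Figure D1:**
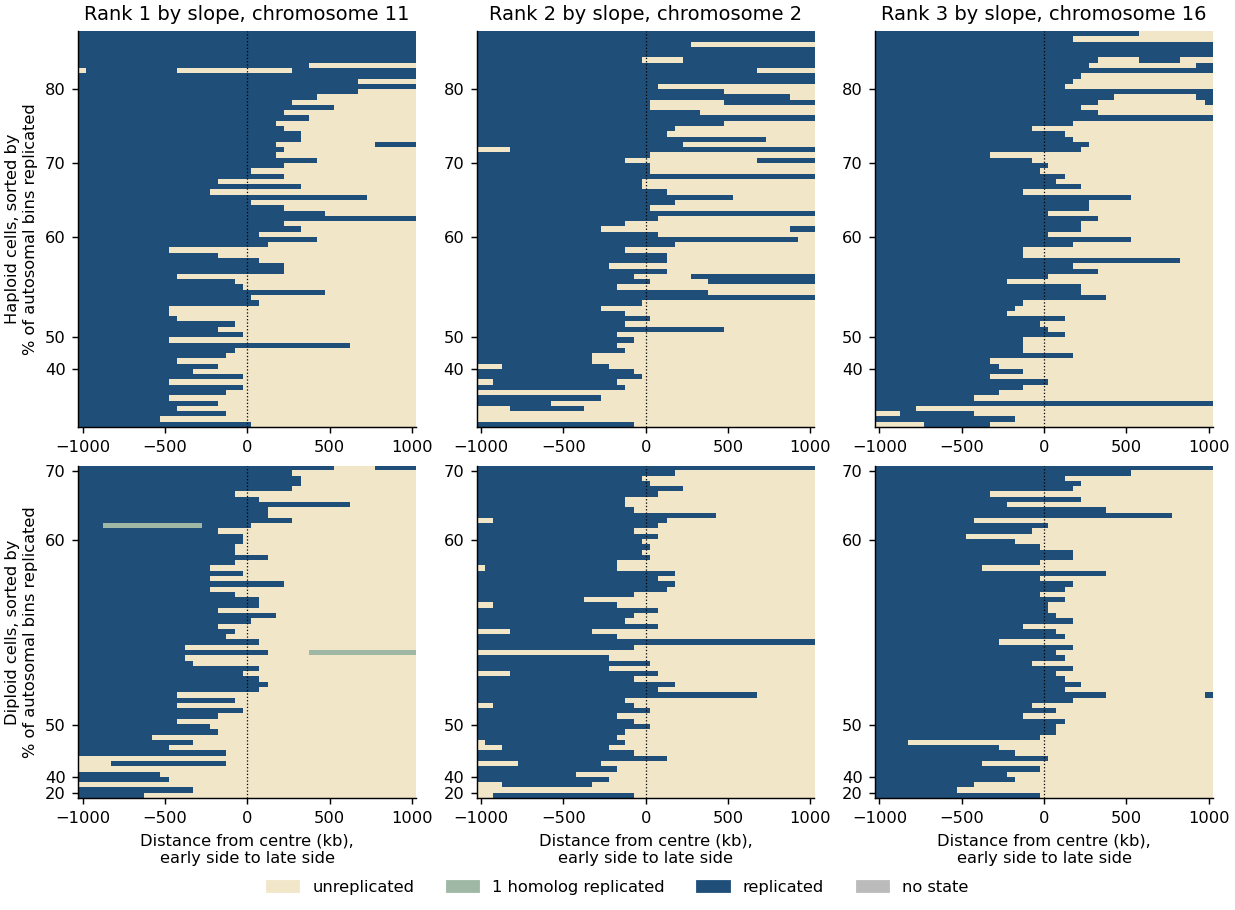
Replication states at the 3 steepest transitions by distance from the centre in kb (early side on the left), with 1 line per cell, 75 haploid cells above and 63 diploid cells below, sorted by the percent of autosomal bins replicated. Dark blue is replicated and the edge of the blue field is the border, which moves to the right from the less to the more replicated cells.

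At the steepest transition (chromosome 11), 48 of 70 mid-S cells had a border within 250 kb. Offsets of the nearest border, positive toward the late side, ran from -575 to 625 kb with a median of -75 kb (SD 249 kb, n = 68 cells with a border within 1 Mb). The bin 500 kb to the early side was replicated in 100% of haploid mid-S cells, the centre in 36% and the bin 500 kb to the late side in 4%. At the second (chromosome 2, Olfr987) 56 of 70 cells had a border, with offsets from -425 to 925 kb and a median of -75 kb. At that of chromosome 16 57 of 70 had one, with offsets from -825 to 825 kb and a median of 50 kb. In all 3 most cells placed the border near the centre, and single cells placed it 625 kb or more away.

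The other 9 of the 12 steepest transitions had a border within 250 kb in 41 to 59 of the 70 mid-S cells. The highest number was found at chr12:5450001-5500000, where Klhl29 was the nearest early-side gene. The lowest was found inside Celf2, which encodes an RNA-binding splicing regulator, at chr2:6800001-6850000. Its borders lay on the early side of the centre with a median offset of -125 kb in both lines. Adgre1, a macrophage surface receptor gene (chr17:57450001-57500000), had borders in 52 cells, Crp, the gene of C-reactive protein (chr1:172800001-172850000), in 57, and Spata16, a gene of sperm formation (chr3:26750001-26800000), in 50. The other transitions of this group, at chr15:61500001-61550000, chr3:78850001-78900000, chr14:71250001-71300000 and chr18:49250001-49300000, had no protein-coding gene at the centre. The nearest early-side gene at the chromosome 15 transition was the proto-oncogene Myc, which starts 460 kb away.

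A border within 250 kb was present in 65.2% ± 11.3 of mid-S cells per transition (SD, n = 286 transitions; 22.9% to 90%), and in over 50% of cells at 250 of the 286 transitions. Moderate transitions, the 561 peaks with a slope between the top 25% and the top 5%, had a border within 250 kb in 41.3% ± 5.40 (n = 70 cells). Counted over bins and for borders of any direction, 59.2% ± 6.59 of steep bins and 17.5% ± 1.91 of the other bins had a border within 250 kb. The difference was 41.7 percentage points ± 7.14 and lay above 0 in 70 of 70 cells. The share of bins with a border rose from 7.34% in the 10% of bins with the lowest slope to 52.8% in the 10% with the highest. A mean profile is steep where the borders of its cells lie together. The shares at steep transitions, the count of 250 and these differences thus follow in part from the way the bins were chosen.

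The comparison was therefore repeated with transitions chosen in 1 line and borders read in the other. At the 286 transitions chosen from haploid cells alone, 58.9% ± 8.75 had a border within 250 kb in diploid mid-S cells (n = 45). At the 299 chosen from diploid cells alone, 62% ± 7.92 had one in haploid mid-S cells (n = 25). The cells measured took no part in the choice, and the values lay a few points below those of the joint choice. Haploid-chosen bins exceeded the other bins by 36.7 percentage points ± 7.60 in 45 of 45 diploid cells, and diploid-chosen bins did so by 39.9 points ± 5.76 in 25 of 25 haploid cells. The share of bins with a border in diploid cells was 8.72% in the 10% of bins with the lowest haploid slope and 48.8% in the 10% with the highest. The lines shared 1288 steep bins, 60.5% of either list.

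**Figure D2:**
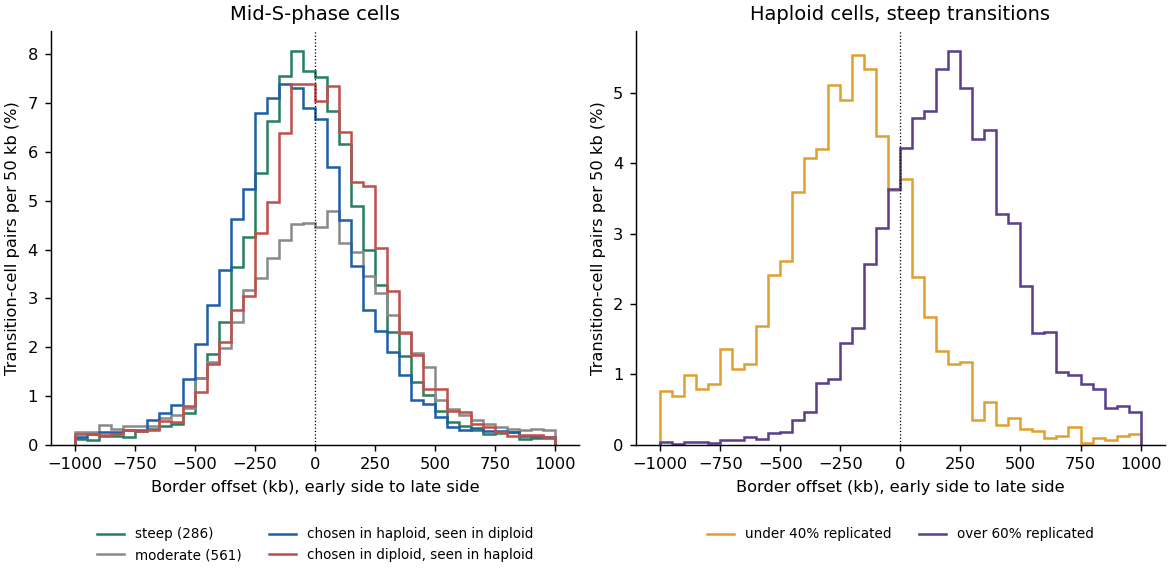
Distribution of border offsets from the centre in kb (positive toward the late side), as the percent of all pairs of a transition and a cell in each 50 kb interval. On the left, mid-S cells, where steep transitions and both held-out choices peak near the centre above the moderate transitions. On the right, steep transitions in haploid cells under 40% replicated, with a median of -225 kb, and over 60% replicated, with a median of 225 kb.

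Single borders were the rule at steep transitions in mid-S. Within 500 kb of the centre, exactly 1 border, in the direction of the transition, was found at 87.1% ± 6.97 of transitions (n = 70 cells). A border against the direction was found at 1.27% ± 1.36, and none at 11.6% ± 6.10. The window was replicated throughout at 5.14% ± 4.02 and unreplicated throughout at 6.47% ± 4.57. Steps back from unreplicated to replicated DNA were thus rarely called on either flank in these cells. The window is the span over which the slope was taken, so single borders are in part favoured by the choice of bins. Short steps back can also be lost to the median filter and the minimum segment length.

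In the same windows, haploid cells under 40% replicated had 41.4% ± 12.5 of transitions unreplicated throughout (n = 11), and haploid cells over 60% replicated had 38.7% ± 24.7 replicated throughout (n = 39). The share with a border within 250 kb fell on both sides of mid-S. In haploid cells it was 25.2% ± 7.55 at 20% to 30% replicated (n = 6), 64.8% ± 7.69 at 50% to 60% (n = 19), 57.7% ± 5.44 at 60% to 70% (n = 14) and 12.9% ± 7.91 at 80% to 90% (n = 11). The cell with the highest share, a diploid cell, was 54% replicated. In the profile of states by distance, the bin 500 kb to the early side was replicated in 57% ± 13.2 of transitions in haploid cells under 40% replicated and in 92.6% ± 4.22 in mid-S. The bin 500 kb to the late side was replicated in 2.45% ± 4.33, 5.68% ± 4.37 and 39.8% ± 25.2 of transitions in haploid cells under 40%, in mid-S and over 60%. In mid-S the early flank was thus mostly replicated in these cells, and the late flank mostly unreplicated. The slope compared these same positions, so this contrast follows in part from the way the bins were chosen.

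**Figure D3:**
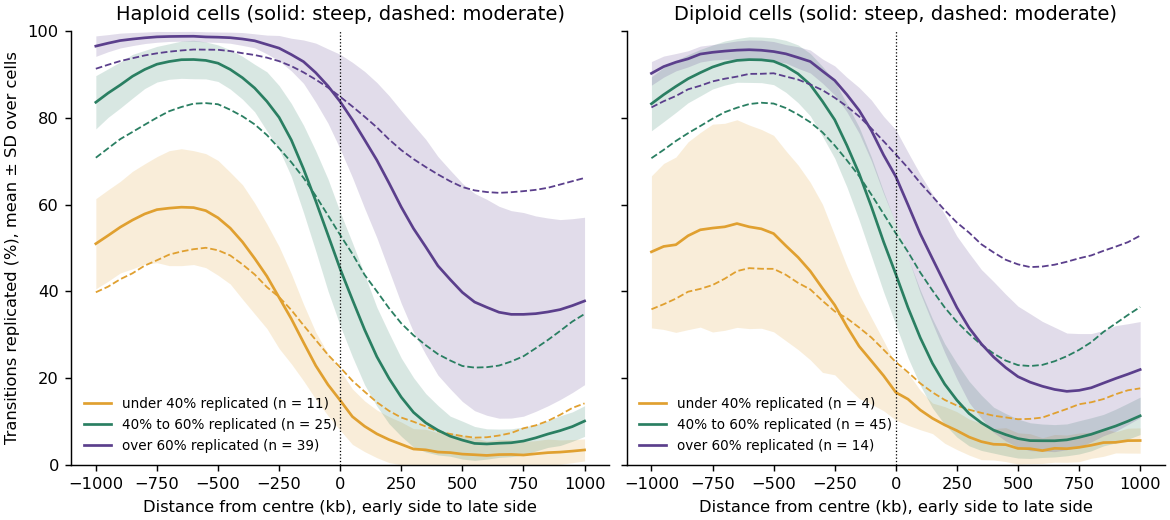
Percent of transitions replicated (mean over cells, shading ± 1 SD for steep transitions) by distance from the centre in kb, in haploid cells (left) and diploid cells (right) of 3 ranges of S-phase progress. Solid lines are the 286 steep and dashed lines the 561 moderate transitions, and in mid-S cells the steep lines fall from over 90% to about 6% across 1 Mb.

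Borders lay close to the centre in mid-S and further toward the late side in cells further through S phase. The median offset of a cell was -28.6 kb ± 75 in mid-S (SD, n = 70; -175 to 175 kb), -25.0 kb ± 80.4 in haploid and -30.6 kb ± 72.7 in diploid cells. This is less than the spread between cells and less than the width of a bin. The centres were taken from the mean profile of these same cells, so a position near them in mid-S follows in part from the way the bins were chosen. In haploid cells the median offset was -227 kb ± 59.6 under 40% replicated (n = 11; -325 to -125 kb) and 249 kb ± 132 over 60% (n = 39; 75 to 625 kb), so that these groups did not overlap. In diploid cells it was -225 kb ± 70.7 (n = 4) and 111 kb ± 112 (n = 14), where the latter reached only 63.6% replicated on average.

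The line fitted over the 75 haploid cells rose by 11.9 kb per percentage point of S phase (Pearson's r = 0.960, Spearman's rho = 0.973) and that over the 63 diploid cells by 10.4 kb (r = 0.867, rho = 0.878). Without the 2 cells farthest from the median progress, r was 0.956 and 0.869, and within rows of wells the lines rose by 12.7 and 10.1 kb. Both axes come from the same calls of states. With progress taken from the odd-numbered chromosomes and borders from the even-numbered ones, the slopes were 11.7 kb in haploid and 10.2 kb in diploid cells, and with the reverse 12.1 and 10.8 kb. A state was called at a threshold set for each cell, which moves borders and replicated share together, and its part in the relation was not tested. Transitions without a border within 1 Mb dropped out of the median offsets, mostly in cells far from mid-S. The part of this loss was not tested either. If S phase lasted 10 h and cells passed it evenly, 11.9 kb per point would be 119 kb per h. Moderate transitions gave 7.90 kb per point in haploid and 7.23 kb in diploid cells. At single steep transitions the haploid line rose at 286 of 286, by 12.2 kb per point ± 3.94 (SD; 0.549 to 24.8).

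Transitions chosen in the other line showed the same order of positions. Diploid-chosen transitions had median offsets of -184 kb ± 62.5, 17 kb ± 81.2 and 286 kb ± 127 in haploid cells under 40% (n = 11), in mid-S (n = 25) and over 60% replicated (n = 39). Haploid-chosen transitions had -288 kb ± 59.5, -84.4 kb ± 71.4 and 71.4 kb ± 112 in diploid cells (n = 4, 45 and 14). As with the joint choice, offsets were lowest under 40% replicated and highest over 60%. Unlike with the joint choice, the diploid mid-S offset of -84.4 kb lay further from the centre than its SD and than the width of a bin.

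**Figure D4:**
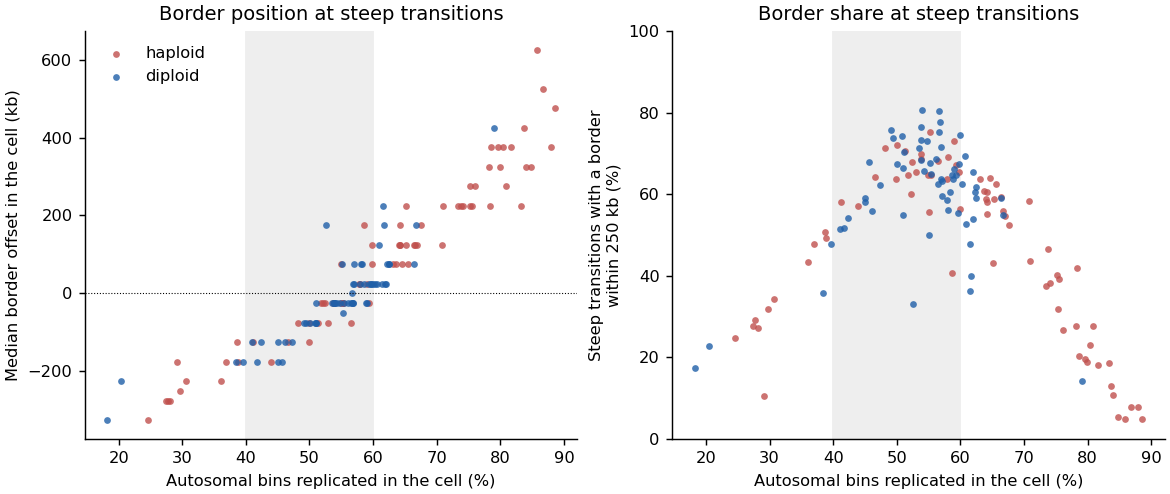
On the left, the median border offset over steep transitions in each cell (kb, positive toward the late side) by the percent of autosomal bins replicated in it. On the right, the percent of steep transitions with a border within 250 kb. Each point is a cell (75 haploid in red, 63 diploid in blue) and the grey band marks mid-S, where offsets cross 0 and the border share is highest at 80.8%.

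The spread of borders differed between transitions. For each transition the SD of the offset over mid-S cells was taken, and its median over the 286 transitions was 239 kb (133 to 446 kb), with 236 kb over haploid and 228 kb over diploid cells alone. The 25th, 50th and 75th percentiles of all mid-S offsets were -175, -25.0 and 125 kb. The median SD of moderate transitions was 277 kb. Offsets over 1 Mb were not counted, which bounds every SD. In transitions chosen in the other line the median SD was 234 kb in diploid and 240 kb in haploid cells, close to the value of the joint choice.

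The tightest borders lay at chr9:35500001-35550000, with an SD of 133 kb over 61 mid-S cells and offsets from -275 to 375 kb. This bin overlaps Cdon, a co-receptor gene of hedgehog signaling, the helicase gene Ddx25 of the testis and Gm1113. The next were at 9330182O14Rik (chr15:40150001-40200000, SD 138 kb, n = 65, -325 to 325 kb) and at the olfactory receptor genes Olfr380 and Olfr381 (chr11:73450001-73500000, SD 145 kb, n = 63, -325 to 275 kb). These tight transitions were not the steepest, since they ranked 203, 139 and 283 of 286 by slope.

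The widest borders lay at chr12:113600001-113650000, among the variable gene segments of the immunoglobulin heavy chain (Ighv), which were not counted as protein-coding genes, with an SD of 446 kb over 63 cells and offsets from -825 to 975 kb. They were followed by Thsd7b (chr1:130100001-130150000, SD 388 kb, n = 69, -925 to 825 kb) and by Suclg2, which encodes a subunit of succinate-CoA ligase of the citric acid cycle (chr6:95450001-95500000, SD 377 kb, n = 65, -625 to 825 kb). At all 3 the lines differed in mean offset by more than 300 kb, so that part of the pooled spread lay between the lines.

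The mean border positions of the lines lay within 200 kb of each other at most steep transitions. The mean offset of haploid minus that of diploid mid-S cells was 3.25 kb ± 112 (SD, n = 286 transitions), above 0 at 162 and below 0 at 124. It reached 200 kb in either direction at 24 of 286 transitions (8.39%), 11 toward the late and 13 toward the early side in haploid cells, where 12.6% of steep and moderate transitions with at least 10 cells of each line reached it. Among moderate transitions alone 14.9% did. The slope was taken on the mean of both lines, so a transition that lies far apart in them is flattened and less often chosen. The small shifts at steep transitions and their lower share thus follow in part from the way the bins were chosen. With borders sought within 500 kb in place of 1 Mb, 4 of 286 reached it. A shift compares 1 sample of each line, and strain, ploidy, culture and preparation cannot be told apart.

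At chr12:113600001-113650000 the mean offset was 64.6 kb ± 297 in 24 haploid cells (-375 to 625 kb) and 472 kb ± 454 in 39 diploid cells (-825 to 975 kb), a shift of -408 kb. Diploid cells had replicated the bin 500 kb to the late side in 73.3%, haploid mid-S cells in 12%. The mapping of Castaneus reads and the copy number of DNA among these Ighv segments were not tested. At chr3:28950001-29000000, with no gene at the centre, the shift was -402 kb. Haploid cells had a mean offset of -305 kb ± 426 (n = 22; -925 to 325 kb) and diploid cells one of 97.7 kb ± 215 (n = 43; -525 to 425 kb). At Thsd7b it was -378 kb, from -287 kb ± 431 in 25 haploid cells (-925 to 825 kb) and 90.9 kb ± 286 in 44 diploid cells (-675 to 525 kb). The ranges of the lines overlapped at all 3.

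The opposite shifts were smaller. At Nmur2, a receptor gene for neuromedin U (chr11:56000001-56050000), the mean offset was 177 kb ± 245 in 25 haploid cells (-275 to 625 kb) and -101 kb ± 281 in 45 diploid cells (-725 to 425 kb), a shift of 278 kb. At chr17:20950001-21000000, which overlaps Ppp2r1a, a scaffold subunit gene of a protein phosphatase, and the vomeronasal receptor gene Vmn1r233, the shift was 265 kb, from 105 kb ± 227 (n = 25; -375 to 575 kb) and -160 kb ± 277 (n = 42; -875 to 325 kb). At chr7:84700001-84750000, without a gene at the centre, it was 253 kb, from 108 kb ± 333 (n = 20; -525 to 875 kb) and -145 kb ± 274 (n = 42; -625 to 875 kb). Each shift was of the size of the SD between cells of a line, and the ranges overlapped.

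The homologs of a diploid cell carried the same state at nearly every steep bin. The share of steep bins with different states on the homologs was 0.645% ± 1.35 per diploid cell (SD, n = 63; 0 to 6.96%), against 0.893% ± 1.62 of other bins. The difference was -0.249 percentage points ± 0.578, above 0 in 9 and below 0 in 36 cells. Of 864 pairs of a steep bin and a cell with different states, 129 DNA was the replicated one in 546 and Castaneus DNA in 318, and 31 of the 63 cells had none. Where both homologs had a border, it lay at different places in 118 of 16279 pairs of a transition and a cell (0.725%), and a further 143 pairs had a border on 1 homolog only. Both homologs were first given the same state profile, and the authors then changed only segments that passed a limit on parsed reads, so that borders at the same place on both homologs are the default of the method. The limits for the 129 and Castaneus sides also differed, and their part in the difference in number was not tested.

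Sequence features were not used to choose the bins. The GC content fell across the steep transitions, from 44.2% ± 2.85 at 500 kb on the early side over 41.2% ± 2.31 at the centre to 39.1% ± 1.91 at 500 kb on the late side (SD over transitions, 50 kb bins of the mm10 reference). The early side was richer in GC by 5.07 percentage points ± 2.78 and at 275 of 286 transitions. At moderate transitions the difference was 3.03 points ± 3.14 and the early side was richer at 480 of 561. Coverage was divided by that of G1 and G2 control cells before scoring to remove a bias of amplification with GC, and any remaining part of it in the mean profile was not tested.

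Repeats and genes changed across the transitions too. Repeat-masked bases were fewer on the early side by 7.25 points on average (28.3% ± 8.16 against 35.6% ± 12.1), with the early side the lower at 189 and the higher at 97 of 286 transitions. Within 500 kb there were 4.63 ± 4.09 protein-coding gene starts on the early and 1.73 ± 3.74 on the late side (SD, n = 286). The early side had more at 226 transitions, the late side at 28, and 32 were equal. At moderate transitions these means were 4.81 and 2.59. Protein-coding gene bodies covered 61.6% ± 37.4 of the bin at 500 kb on the early side, 32.9% ± 42.8 of the centre bin and 29.2% ± 43.4 of the bin at 500 kb on the late side. GC, repeat and gene content thus differed in mean between the sides, and single transitions varied widely.

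**Figure D5:**
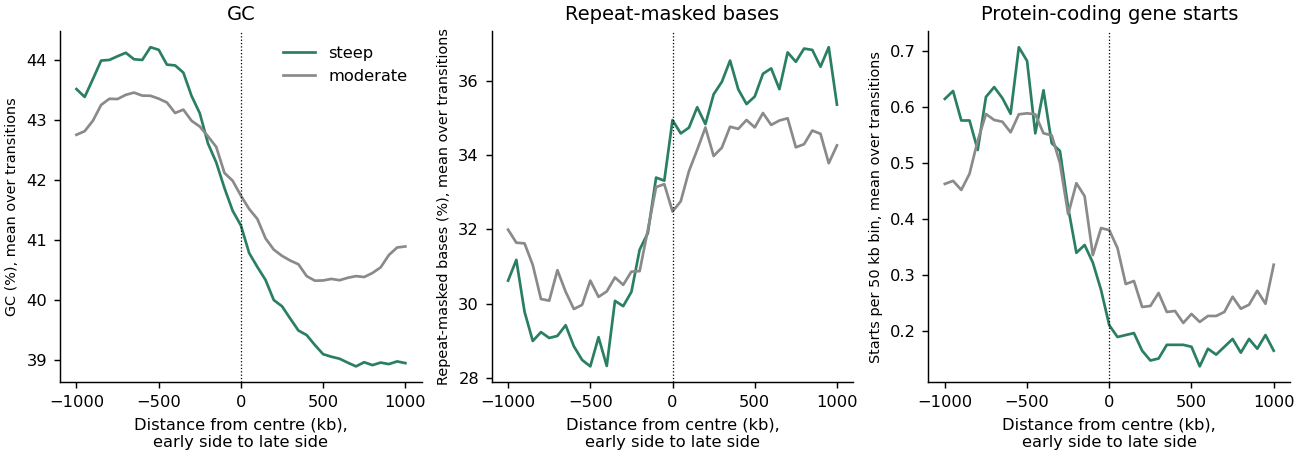
GC content, repeat-masked share and protein-coding gene starts per 50 kb bin by distance from the centre in kb (early side on the left), as means over 286 steep and 561 moderate transitions. The vertical axes do not start at 0. GC falls from 44.2% to 39.1% between the bins 500 kb on either side of steep centres.

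Few genes began in the steep bins themselves. A steep bin held 0.220 ± 0.564 protein-coding gene starts and another bin 0.427 ± 0.847. Of the starts that lay in bins with a slope, 468 of 17719 lay in steep bins (2.64%), below the 5% of bins that were steep. The centre bin held a protein-coding gene at 132 transitions and none at 154. Of 19 tested pluripotency genes, 18 lineage regulators and 21 genes of DNA replication and timing, 0 began in a steep bin. With so few genes and 2.64% of all genes there, counts of 0 are near the background. Of olfactory receptor genes (Olfr), 78 of 930 began in steep bins (8.39%), of vomeronasal receptor genes (Vmn) 8 of 169 (4.73%), of zinc finger genes (Zfp) 11 of 272 (4.04%) and of genes over 500 kb long 14 of 199 (7.04%). Olfr, Vmn and Zfp genes lie in clusters, so that their starts are not independent. Of the bins in genes over 500 kb, 225 of 3694 were steep (6.09%), close to the 5% of all bins.

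Within 1 Mb of a steep centre, 3693 of 20807 protein-coding genes began (17.7%), of which 76.1% lay on the early side. Of the listed genes 7 of 21 pluripotency genes, 5 of 22 lineage regulators and 4 of 21 genes of DNA replication did so, every one of these 16 on the early side. The nearest were Dppa4 and Dppa2, a pair of chromatin genes of pluripotent cells, which start 259 and 279 kb from the centre at chr16:48000001-48050000. There the mean offset in mid-S cells was 39.3 kb ± 249. Dppa4 lay in replicated DNA in 96.0% of haploid and 93.3% of diploid mid-S cells, and in 45.5% of haploid cells under 40% replicated.

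The lineage regulators near a steep transition were Sox17 of endoderm, Neurog2 of neurons, Eomes of mesendoderm, Myod1 of muscle and Hand1 of heart and placenta, at 372, 442, 453, 899 and 658 kb from a centre. Sox17 was in replicated DNA in 72% of the haploid mid-S cells and 57.8% of the diploid ones, the lowest diploid share of the 16 genes, and Neurog2 in 72% and 100%. Among replication genes, the helicase subunit genes Mcm3, Mcm6 and Mcm5 began 445 to 465 kb from a centre, and Pcna, the gene of the sliding clamp, 972 kb. The other pluripotency genes, Tfcp2l1, Dppa5a, Tdgf1, Tet1 and Klf5, began between 553 and 843 kb from a centre and were replicated in 100% of haploid mid-S cells.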

How the data were processed

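Single nuclei were sequenced at low coverage. Following their methods, the authors aligned reads with Bowtie 2 (build mm10), removed duplicates, counted reads in 50 kb windows, divided by G1 and G2 control cells, centered, scaled and median smoothed each cell. The deposited smoothed score has no unit. The authors deposited a second table of binary states, 0 for unreplicated and 1 for replicated, from piecewise constant segments of at least 250 kb. The depth per cell was not given. Cells were matched to labels by well, and 24 columns (16 of states and 8 of scores, from 8 diploid cells) with no labelled sample were not used. Cells labelled without matched values were not analysed here.

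Progress was the mean state over 45112 autosomal bins with a state in every cell and a score in at least 50% of cells of each line. A border lay midway between neighbouring bins with states that differed. The offset was that of the nearest border of the right direction within 1 Mb. Gene starts, GC and repeats were read from the GRCm38 reference and GENCODE annotation. The named genes were those in the centre bin of the 12 steepest transitions, of the 3 of lowest and the 3 of highest spread and of the 3 largest shifts between lines each way, genes of the lists within 1 Mb, and gene starts beside the steepest transitions, chosen after their values were seen. Transitions and gene lists were chosen with earlier results of these data known. The functions were tested on simulated data. Python 3.11.15, NumPy 2.4.6, pandas 2.3.3 and SciPy 1.17.1 were used.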

Additional observations from a re-analysis of the deposited data

Results flagged for a closer look

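Among the 6 haploid cells between 20% and 30% replicated, 1 cell (replicate 11, 29.1% replicated) stood far below the others in the share of steep transitions with a border within 250 kb of the centre, at 10.5% against 24.8% for the next lowest. Its gap was 0.672 of the range of the group, above Dixon's 95% critical value for 6 samples. It was the 1 such case among 15 comparisons of a small group of cells on 1 measure, and chance alone gives about 1 in 20.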

How the results depend on the processing

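No paired analysis was possible because cell numbers name wells and pair no cells across lines. Of 108 alternative values of 12 results, 88 moved by less than 1 SD, or for counts by less than 1.5 times. The other 20 were these. With the slope over 1 Mb on either side, the border share at steep transitions was 32%, that of haploid-chosen transitions in diploid cells 33.6%, that of diploid-chosen ones in haploid cells 31.3%, the difference between steep and other bins 17.5 points, the border position in mid-S -115 kb and the diploid drift between cells over 60% and under 40% replicated 461 kb, against 336 kb. With borders within 100 kb, the 3 shares were 30.1%, 26.6% and 29.2% and the difference 19.3 points. Within 500 kb they were 88.2%, 84.7% and 85.1% and the difference 54.4 points. These distances define the measure. With a search window of 500 kb, the haploid drift was 349 kb against 477 kb, and 4 transitions shifted by 200 kb or more between lines against 24. The narrower window bounds the offsets. The last count was 9 for the top 2% of slope and 53 for the top 10%, and genes in steep bins were 191 and 1152 against 468, as fewer or more bins were taken. The alternatives of these last counts were added after seeing the data. No alternative turned the direction of either drift or of the differences between steep and other bins. The border position in mid-S lay between -85.9 and 10 kb under the alternatives that moved it by less than 1 SD. Depth was not given, so its effect on border placement could not be weighed.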
